A study of Mus musculus with 9 samples.

Results

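The genes described here are 9 that encode proteins of the later stages of neutrophil maturation: Camp, Ngp, Ltf, Lcn2, Pglyrp1, S100a8, S100a9, Chi3l3 and Ly6g. They were chosen by symbol, as proteins of the secondary granules or of mature neutrophils, and make up 9 of the 38926 gene symbols in the count tables. Of these, 8 passed the filter on low counts and are among the 12663 genes tested, and Ly6g did not. RNA was measured in murine leukaemia cells that carry the MLL-AF9 fusion oncogene, taken from tertiary transplants, on day 4 after transduction with a hairpin. The groups were a control hairpin and 2 short hairpin RNAs (shRNA-1 and shRNA-2) against Syncrip, an RNA-binding protein, with 3 libraries each from cultures transduced and processed individually. The control is called scrambled in the sample labels and luciferase in the series' design, so which hairpin it was is not settled here. All 3 groups carried the same fusion, and neither the number of mice nor the number of clones behind the cells is given in the labels or the design.

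Neutrophil precursors fill their granules in sequence. Primary (azurophilic) granules receive myeloperoxidase and the serine proteases at the promyelocyte stage, secondary (specific) granules receive lactoferrin, cathelicidin and lipocalin at the myelocyte and metamyelocyte stages, and tertiary granules receive gelatinase later still. The secondary granule genes are known targets of C/EBP family factors, above all C/EBP epsilon, and MLL-AF9 leukaemia cells are held at an earlier myeloid stage. Of the 9 genes, Camp, Ngp, Ltf, Lcn2 and Pglyrp1 encode granule proteins, S100a8 and S100a9 encode the abundant cytosolic calcium-binding complex calprotectin, Chi3l3 encodes a chitinase-like lectin also made by macrophages, and Ly6g encodes a surface antigen used to mark mouse neutrophils.

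In GENCODE on GRCm38, Camp (ENSMUSG00000038357.10, chr9:109847379-109849617), Ngp (ENSMUSG00000032484.8, chr9:110419747-110423012) and Ltf (ENSMUSG00000032496.7, chr9:111019271-111042767) lie on 1 stretch of chromosome 9. Between Camp and Ngp are 570129 bases with 8 other protein-coding genes, and between Ngp and Ltf 596258 bases with 20. S100a8 (chr3:90668978-90670035) and S100a9 (chr3:90692632-90695721) are 22596 bases apart with no protein-coding gene between them. Chi3l3, now named Chil3, is at chr3:106147554-106167564, Lcn2 at chr2:32384633-32388252, Pglyrp1 at chr7:18871331-18890459 and Ly6g at chr15:75155240-75159126.

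The promoters of all 9 genes were found in RefSeq (GRCm38.p6), and the 250 bases before each start were searched on both strands for the core letters of a C/EBP site, since C/EBP factors are the known regulators of these granules. The form TTNNGCAA was present in 5 of the 9 (Ngp, Ltf, Lcn2, S100a9 and Ly6g) and in 9.56% of 32851 promoters of the same length. With the form TGNNGCAA added, which was chosen after the sequences had been seen, 8 of the 9 held a match and Chi3l3 held none, against 18.1% of all promoters. The core of a PU.1 site, GAGGAA, was in 5 of the 9 and in 23.3% of all promoters, and TATAAA was in 2 of the 9, S100a8 and Ly6g, and in 12.4%. A match describes the letters only, and no binding was measured.

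The stretches that carry the C/EBP-like matches of the 7 expressed genes with one are shown on the strand of each gene, with the matches in capitals. Ly6g, which was barely detected, is not shown. Matches on the other strand are shown as their complement, beginning with TTGC. The Camp, Lcn2 and Pglyrp1 stretches lie inside the span that GENCODE gives the gene.
Camp, chr9:109849571-109849600, minus strand: tcaTGAGGCAAtgagagtcTGAAGCAAgcg
Ngp, chr9:110419558-110419746, plus strand: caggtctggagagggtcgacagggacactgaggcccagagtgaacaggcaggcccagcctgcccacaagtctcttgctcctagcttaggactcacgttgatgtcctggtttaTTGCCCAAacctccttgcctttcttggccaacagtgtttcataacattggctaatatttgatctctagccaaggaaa
Ltf, chr9:111019042-111019270, plus strand: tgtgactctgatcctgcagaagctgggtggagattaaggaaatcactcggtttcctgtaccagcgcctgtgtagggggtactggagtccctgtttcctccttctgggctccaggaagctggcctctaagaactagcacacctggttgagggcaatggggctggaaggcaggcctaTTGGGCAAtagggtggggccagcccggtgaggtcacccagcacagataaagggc
Lcn2, chr2:32387937-32387966, minus strand: agcccttcctgTTGCTCAAccttgcacagt
Pglyrp1, chr7:18884605-18884634, plus strand: ccgcccaggtgTGAAGCAAgcccttcctct
S100a8, chr3:90668821-90668977, plus strand: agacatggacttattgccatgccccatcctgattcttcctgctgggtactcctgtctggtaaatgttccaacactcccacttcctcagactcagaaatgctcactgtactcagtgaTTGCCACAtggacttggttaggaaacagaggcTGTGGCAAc
S100a9, chr3:90695722-90695971, minus strand: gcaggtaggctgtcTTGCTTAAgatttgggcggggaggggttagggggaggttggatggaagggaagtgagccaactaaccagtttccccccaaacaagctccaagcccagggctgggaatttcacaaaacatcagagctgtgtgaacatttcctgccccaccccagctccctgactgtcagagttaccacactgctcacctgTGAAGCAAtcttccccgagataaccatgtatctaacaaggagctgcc

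Camp held 2 matches, TGAGGCAA and TGAAGCAA, 141 and 125 bases before its RefSeq start, and the TGAAGCAA form recurred in Pglyrp1 at 74 bases and in S100a9 at 47 bases. Ltf held TTGGGCAA at 75 bases. Ngp held the same letters 11 bases before its RefSeq start, besides the match at 138 bases. The match at 11 bases is outside the stretch shown and inside the span that GENCODE gives the gene.

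Syncrip itself fell in every knockdown library. It stood at 227 ± 17.5 CPM (TMM-scaled read counts relative to library size, SD, n = 3) in the controls, 17.8 ± 2.13 CPM with shRNA-1 and 56.7 ± 9.05 CPM with shRNA-2. Library totals ran from 9559638 to 19483923 counts, lower in all shRNA-1 libraries than in any control. Ribosomal RNA took 6.97% ± 1.92 of the control counts, 15.4% ± 3.69 of those with shRNA-1 and 10.7% ± 4.84 of those with shRNA-2. Marker sums of other cell types also differed and are given further on.

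The 9 genes together took 1.37% ± 0.0324 of all control counts, 3.12% ± 0.301 of the shRNA-1 counts and 3.85% ± 0.398 of the shRNA-2 counts. The lowest knockdown library, at 2.78%, was above the highest control, at 1.41%. S100a8 and S100a9 made up most of each sum, at 1.16%, 2.69% and 3.35%. By counts, S100a8 ranked number 7 of the tested genes in the controls and number 3 with each hairpin. Because the RNA came from bulk cultures, more cells of a mature type and more RNA of these genes per cell cannot be told apart.

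**Figure D1:**
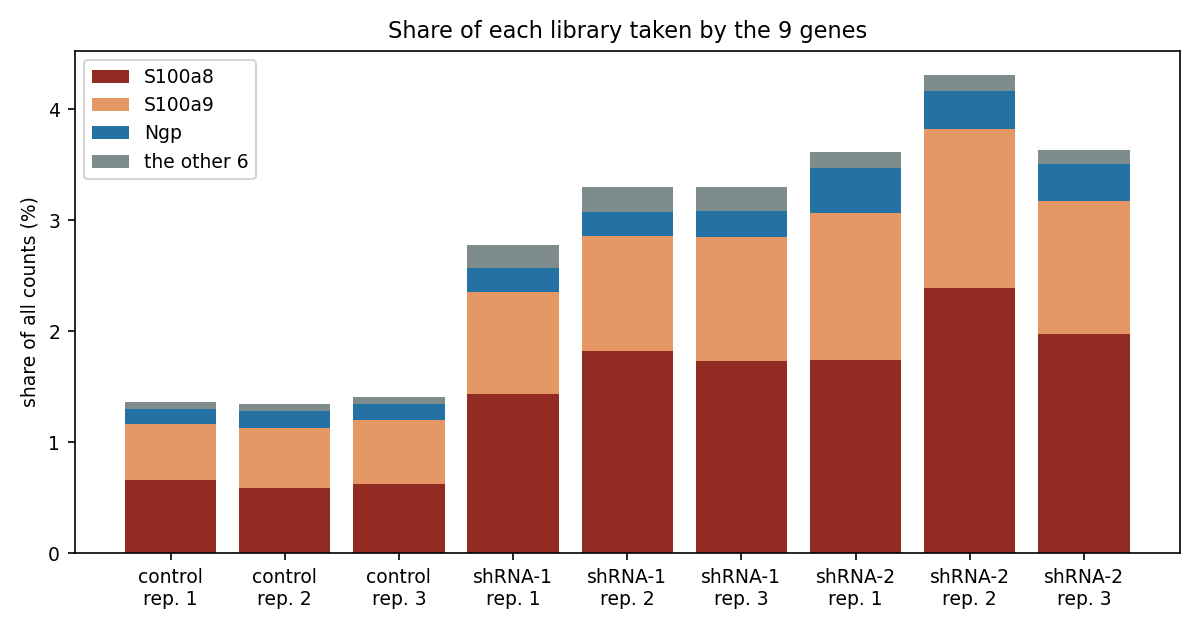
Share of all counts taken by the 9 genes in each of the 9 libraries (stacked bars, percent of the library total), split into S100a8, S100a9, Ngp and the other 6. The controls lie between 1.35% and 1.41%, the shRNA-1 libraries between 2.78% and 3.30% and the shRNA-2 libraries between 3.61% and 4.31%.

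With shRNA-1, all 8 tested genes rose against the control (edgeR's quasi-likelihood test, Benjamini-Hochberg adjusted p under 0.05 over 12663 genes), where 17.4% of all tested genes rose. With shRNA-2, 7 rose, where 24.4% of all tested genes rose, and 1, Ltf, fell, where 24.2% fell. Those 7 rose with both hairpins, against 9.24% of all genes, no member fell with both, against 9.57%, and Ltf rose with shRNA-1 and fell with shRNA-2, a pattern held by 1.37% of all genes. The median log2 fold change of the 8 was 1.51 with shRNA-1 and 1.54 with shRNA-2, beside medians over all tested genes of 0.02 and 0.00. The hairpins were compared with the same 3 control libraries, so the counts are not independent of each other. All libraries of a hairpin lay above all controls for each of the 8 genes with shRNA-1, against 26.8% of all genes. With shRNA-2 this held for 6, against 27.3%, while Camp overlapped the controls and Ltf lay wholly below them, as did 28.1% of all genes.

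**Figure D2:**
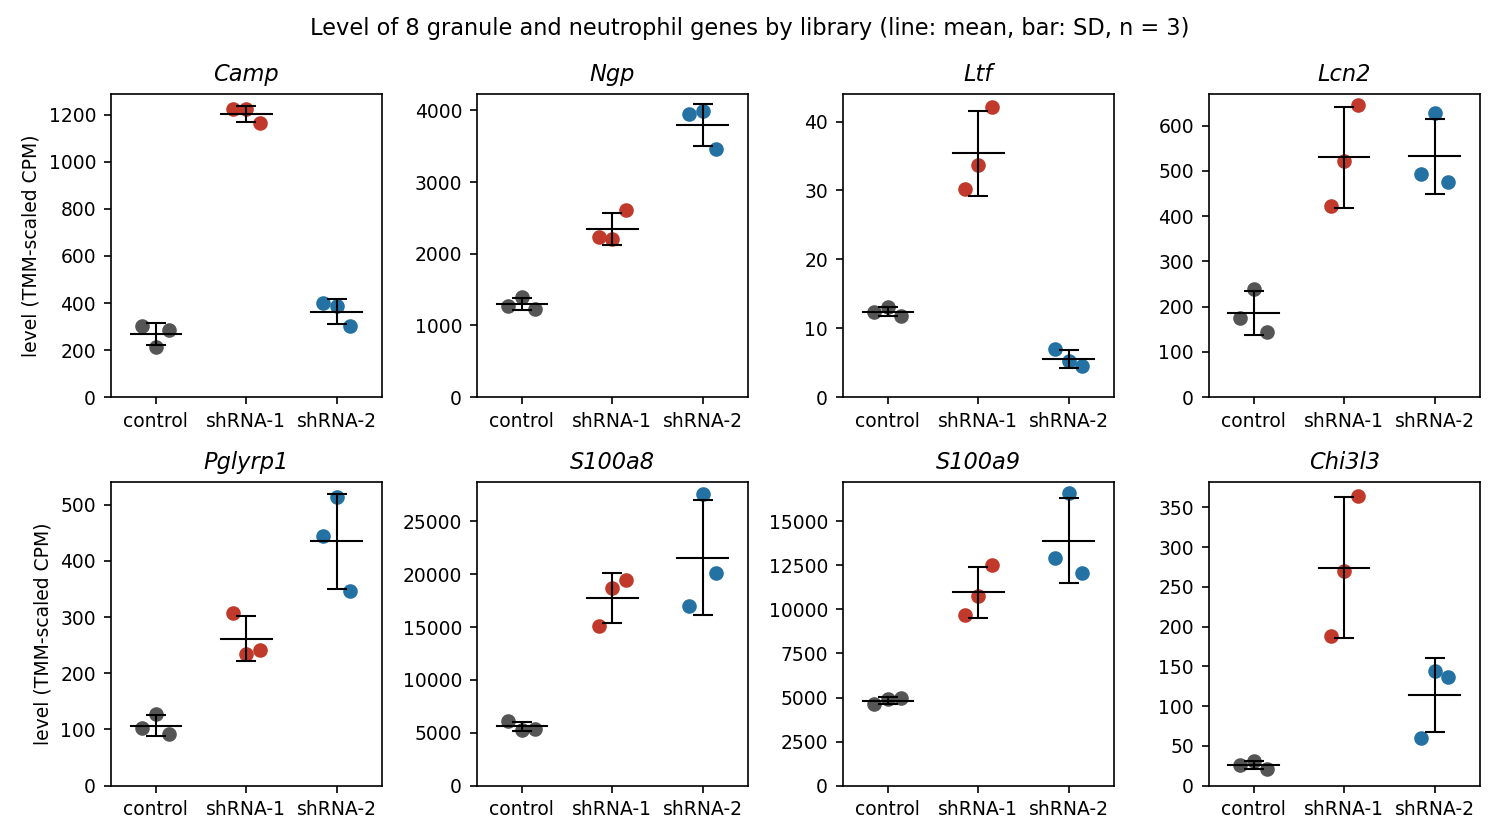
Level in each library (points, TMM-scaled CPM, 1 panel per gene with its own axis from 0), with the mean (line) and SD (bar) of the 3 libraries of each group. Camp is high with shRNA-1 alone (1163 to 1226 CPM), Ltf stands above the controls with shRNA-1 and below them with shRNA-2, and the other 6 genes stand above the controls with both hairpins.

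Among the granule proteins, Camp, the precursor of the cathelicidin antimicrobial peptide, was high with shRNA-1 and near the control level with shRNA-2. Its level was 304, 215 and 284 CPM in the 3 controls, 1226, 1222 and 1163 CPM with shRNA-1, and 401, 385 and 304 CPM with shRNA-2. The shRNA-1 libraries stood clear of all the others, while the lowest shRNA-2 library was level with the highest control. With shRNA-1 Camp rose by 2.17 ± 0.16 on the log2 scale (SE, 4.50-fold; edgeR's quasi-likelihood test, adjusted p = 1.63e-05), number 73 of 12663 genes by size of rise. With shRNA-2 its change was 0.44 ± 0.16 (1.36-fold, adjusted p = 0.0364 by the same edgeR test). This second call was lost in 10 of 20 alternative fits. Scaling by total counts without TMM gave 0.22 (adjusted p = 0.288). Leaving out any shRNA-1 library, shRNA-2 replicate 1 or 2, or control replicate 2 or 3 also ended the call, with values from 0.31 without control replicate 2 to 0.50 without control replicate 3. Between the hairpins Camp was higher with shRNA-1 by 1.73 ± 0.16 (adjusted p = 1.22e-05), a call that every alternative kept.

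Ltf encodes lactoferrin, the iron-binding protein that defines the secondary granule. Its RNA was scarce, at 12.4, 13.1 and 11.7 CPM in the controls, 30.2, 33.7 and 42.2 CPM with shRNA-1 and 6.93, 5.18 and 4.52 CPM with shRNA-2. No 2 groups overlapped, and the control lay between the hairpins. Ltf rose by 1.52 ± 0.17 with shRNA-1 (log2, adjusted p = 0.000171) but with shRNA-2 it fell by 1.15 ± 0.18 (adjusted p = 0.000351, edgeR's quasi-likelihood test for both). The hairpins differed by 2.67 ± 0.19 (adjusted p = 1.95e-06), the largest difference between them among the 8 genes.

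Ngp, a cystatin-related protein stored in granules, was the most abundant granule RNA of the set. It stood at 1273, 1396 and 1223 CPM in the controls, 2238, 2206 and 2609 CPM with shRNA-1 and 3945, 3986 and 3458 CPM with shRNA-2. The groups did not overlap, and shRNA-2 was the highest. The rise was 0.86 ± 0.14 with shRNA-1 (log2, adjusted p = 0.00125) and 1.55 ± 0.15 with shRNA-2 (adjusted p = 9.76e-06, edgeR's test for both), and the level was lower with shRNA-1 than with shRNA-2 by 0.69 on the log2 scale (−0.69 ± 0.14, adjusted p = 0.00265).

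Pglyrp1, a granule protein that binds bacterial peptidoglycan, followed the order of Ngp. It measured 102, 128 and 91.1 CPM in the controls, 307, 235 and 241 CPM with shRNA-1 and 445, 513 and 346 CPM with shRNA-2. Again no library of one group reached into another. It rose by 1.29 ± 0.18 with shRNA-1 (log2, adjusted p = 0.000520) and by 2.02 ± 0.18 with shRNA-2 (adjusted p = 7.26e-06, edgeR's test for both). The difference between hairpins was −0.74 ± 0.18 (adjusted p = 0.00641), and it was lost when the knockdown libraries with the highest ribosomal RNA share, shRNA-1 replicate 3 and shRNA-2 replicate 2, were both left out (adjusted p = 0.0631).

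Lcn2, the lipocalin that captures bacterial siderophores, rose by nearly the same amount with the 2 hairpins. Its level was 176, 239 and 144 CPM in the controls, 423, 521 and 646 CPM with shRNA-1 and 493, 628 and 475 CPM with shRNA-2. The knockdown groups overlapped each other and both stood clear of the controls. The change was 1.51 ± 0.21 with shRNA-1 (log2, adjusted p = 0.000484) and 1.51 ± 0.21 with shRNA-2 (adjusted p = 0.000130, edgeR's test for both). The difference between hairpins was −0.01 ± 0.21 (adjusted p = 0.987), with a 95% confidence interval from −0.45 to 0.44.

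The calprotectin subunits were far more abundant. S100a8 stood at 6137, 5305 and 5381 CPM in the controls, 15089.9, 18728 and 19494 CPM with shRNA-1 and 16996, 27593 and 20080.0 CPM with shRNA-2. S100a9 stood at 4604, 4893 and 4987 CPM in the controls, 9652, 10759 and 12517 CPM with shRNA-1 and 12934, 16621 and 12083 CPM with shRNA-2. For both subunits every knockdown library lay above every control, and the 2 knockdown groups overlapped, with shRNA-2 replicate 2 the highest of all. S100a8 rose by 1.66 ± 0.22 with shRNA-1 (log2, adjusted p = 0.000390) and by 1.94 ± 0.22 with shRNA-2 (adjusted p = 3.49e-05). S100a9 rose by 1.18 ± 0.19 (adjusted p = 0.000941) and 1.52 ± 0.19 (adjusted p = 6.06e-05, edgeR's quasi-likelihood test for all). Neither difference between hairpins passed the test, at −0.28 ± 0.22 for S100a8 (95% interval −0.75 to 0.19, adjusted p = 0.327) and −0.34 ± 0.19 for S100a9 (−0.74 to 0.07, adjusted p = 0.168).

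Chi3l3, the chitinase-like lectin also known as Ym1, showed the largest relative rise of the 8 with shRNA-1. It measured 25.9, 31.5 and 20.6 CPM in the controls, 188, 269.9 and 365 CPM with shRNA-1 and 60.1, 145 and 137 CPM with shRNA-2. The 3 groups did not overlap, though the libraries of each knockdown group were spread widely. The rise was 3.40 ± 0.34 with shRNA-1 (log2, 10.6-fold, adjusted p = 7.29e-05), number 6 among 12663 genes, and 2.13 ± 0.32 with shRNA-2 (4.39-fold, adjusted p = 0.000247). The hairpins differed by 1.27 ± 0.31 (adjusted p = 0.00685, edgeR's test). With the ribosomal RNA share (log2) as a covariate, the rise with shRNA-1 was 2.44 and the difference between hairpins 0.84, and both kept their calls. Chi3l3 has close paralogs in the genome, and the sources used here do not say how multi-mapping reads were handled, so its counts are uncertain.

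Ly6g was close to absent. It had 0 counts in all 3 controls, 0, 0 and 1 with shRNA-1, and 5, 0 and 0 with shRNA-2. A count of 0 allows up to 3 counts, which is 0.132 to 0.199 CPM in the controls, for counting error only. No fold change is given, and this member, which also has close paralogs, was not tested. Reads lost to its paralogs cannot be told apart from low RNA. The name mature neutrophil proteins describes where the genes are known from, and the stage of these cells was not measured.

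**Figure D3:**
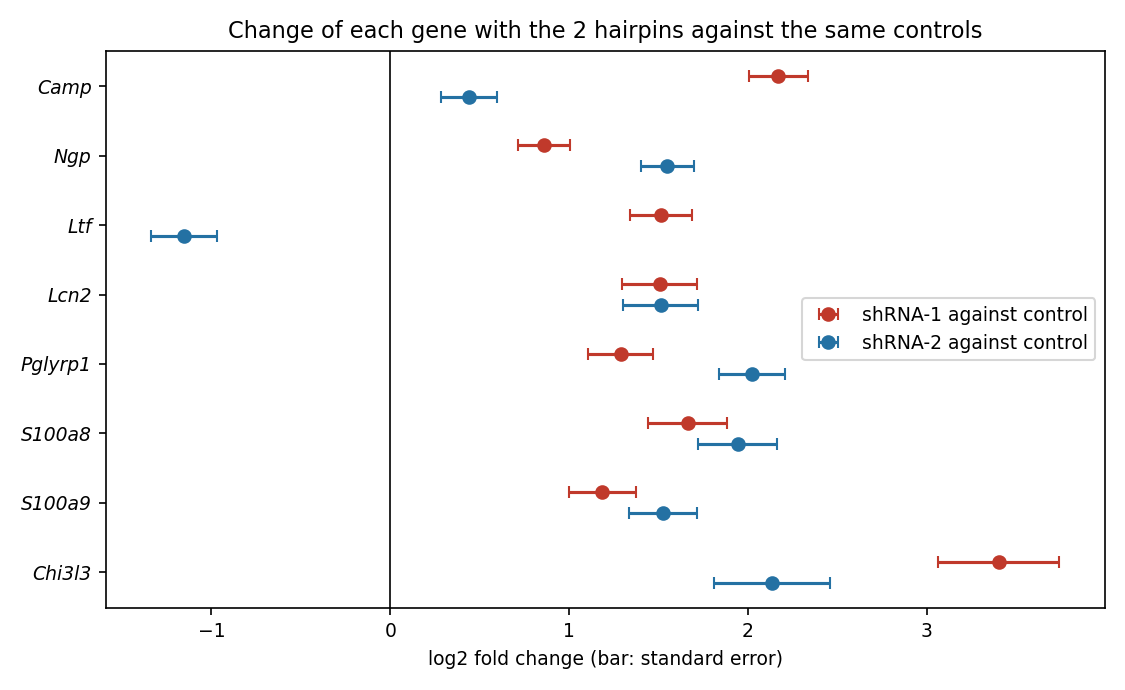
Fitted log2 fold change of the 8 tested genes with shRNA-1 and shRNA-2, each against the same 3 controls (points; bars are standard errors). Camp (2.17 and 0.44) and Ltf (1.52 and −1.15) are farthest apart between hairpins, while Lcn2 (1.51 and 1.51) coincides.

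Compared directly, the hairpins differed for 5 of the 8 genes by edgeR's quasi-likelihood test. Camp, Ltf and Chi3l3 were higher with shRNA-1 than with shRNA-2, where 19.7% of all tested genes were, and Ngp and Pglyrp1 were lower, where 21.3% were. The libraries of the 2 knockdown groups did not overlap for these 5 genes, whereas shRNA-1 lay wholly above shRNA-2 in 25.5% of all genes and wholly below in 24.3%. No test compared the 3 and 2 of 8 genes with these shares, so nothing is read from the counts. Lcn2, S100a8 and S100a9 did not pass.

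Ratios of counts within 1 library do not depend on how libraries are scaled. The ratio of Camp to Ngp counts was 0.239, 0.154 and 0.232 in the controls, 0.548, 0.554 and 0.446 with shRNA-1 and 0.102, 0.0967 and 0.0879 with shRNA-2. No group overlapped another, and the control lay between the hairpins, as it did for the Ltf level. The means were 0.208 ± 0.0473, 0.516 ± 0.0607 and 0.0954 ± 0.00693 (SD, n = 3), and each 2-sided exact permutation test gave p = 0.1, the smallest that 3 against 3 allows. The ratio of Ltf to Camp was 0.0476 ± 0.0115 in the controls, and was 0.0295 ± 0.00604 under shRNA-1 and 0.0152 ± 0.00195 under shRNA-2 (exact permutation p = 0.1 for each pair). It was thus lower than the control with both hairpins, although Ltf itself moved in opposite directions.

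S100a8 over S100a9 was 1.17 ± 0.145 in the controls, against 1.62 ± 0.104 (shRNA-1) and 1.55 ± 0.200 (shRNA-2). All shRNA-1 libraries were above the controls (exact permutation p = 0.1), while shRNA-2 replicate 1, at 1.31, fell below control replicate 1, at 1.33 (exact permutation p = 0.2). Lcn2 over Ngp was 0.142 ± 0.0270 in the controls, 0.224 ± 0.0309 with shRNA-1 (exact permutation p = 0.1) and 0.140 ± 0.0164 with shRNA-2 (exact permutation p = 0.9). In all, 4 ratios were compared over 3 pairs of groups. No adjusted value can pass, because the smallest possible p is above the threshold.

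**Figure D4:**
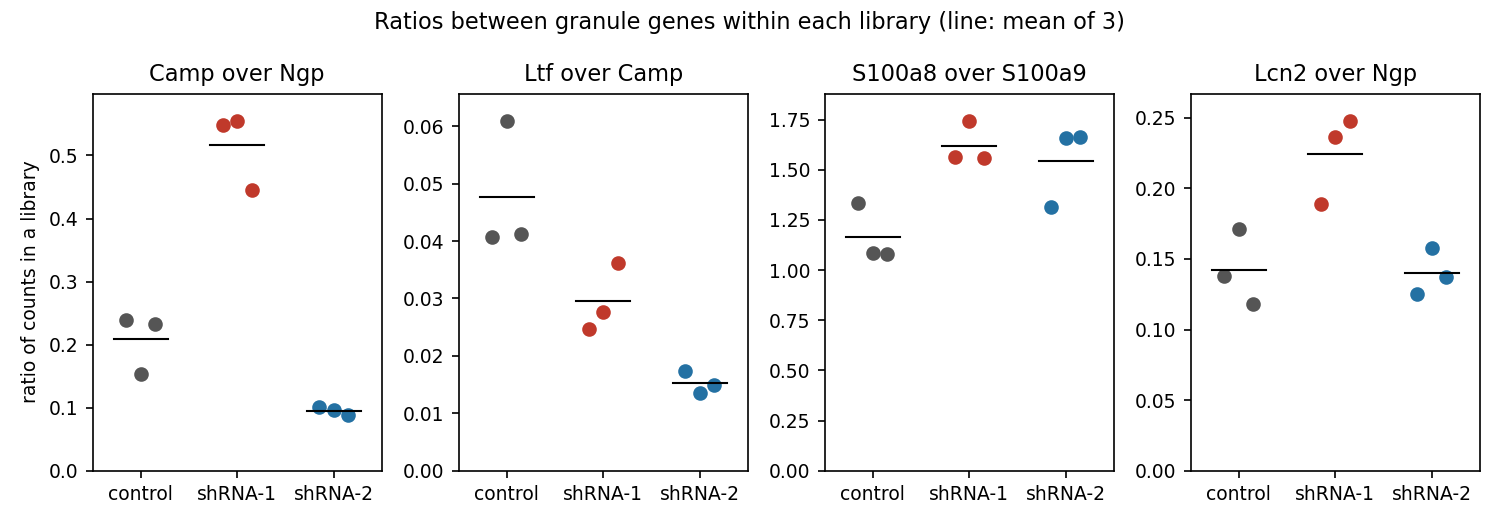
Ratio of the counts of 2 genes within each library (points) with the mean of the 3 libraries of each group (line), 1 panel per ratio, each with its own axis from 0. Camp over Ngp is 0.446 to 0.554 with shRNA-1, 0.154 to 0.239 in the controls and 0.0879 to 0.102 with shRNA-2.

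Between genes, levels can be set side by side only per transcript length, and with oligo-dT priming, which weighs the end of transcripts, even this is approximate. In the controls the mean level in CPM per kb of transcript was 11538 for S100a8, 9302 for S100a9, 1062 for Ngp, 353 for Camp, 204 for Lcn2, 154 for Pglyrp1, 16.9 for Chi3l3, 4.51 for Ltf and 0 for Ly6g. The libraries of neighbouring genes in this order did not overlap, except those of Lcn2 and Pglyrp1. With shRNA-1 the order was the same and no neighbours overlapped, with Camp at 1588 CPM per kb next to Ngp at 1924. With shRNA-2 Camp came after Pglyrp1 and Lcn2 in the order, with Ngp at 3106, Pglyrp1 at 626, Lcn2 at 582 and Camp at 479 CPM per kb. There Pglyrp1 overlapped Lcn2, and Lcn2 overlapped Camp.

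Across the 9 libraries, Pearson's r of the log2 levels was 0.98 for the close neighbours S100a8 and S100a9 and 0.97 for Ngp with Pglyrp1, but 0.24 for Camp with Ngp and −0.35 for Ngp with Ltf, which share the stretch of chromosome 9. Camp and Ltf, also on that stretch, gave 0.79. These values describe 9 libraries in 3 groups and mostly follow the group means. Among 9306 other genes with a mean of at least 5 CPM, the closest to Ltf was Gca, which encodes the granule-associated calcium-binding protein grancalcin (r = 0.997), and the closest to S100a8 was C5ar1, the receptor for complement C5a (r = 0.988). The closest to Camp was Pex13 (r = 0.983), to Ngp Rdh12 (r = 0.993), to Lcn2 Calhm2 (r = 0.991), to S100a9 0610009B22Rik (r = 0.994), to Chi3l3 S1pr4 (r = 0.993) and to Pglyrp1 Slc10a3 (r = 0.993). The next in each case were 1810037I17Rik, Rfwd2, 2610018G03Rik, Tmed5, Fbxo8, 9930012K11Rik, Slc40a1 and Phc2, in the order Camp, Ngp, Ltf, Lcn2, S100a8, S100a9, Chi3l3 and Pglyrp1. All these genes were picked as the highest of 9306 values over 9 libraries, so a high r alone shows no link to the member.

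Other genes of the granule programme were read from lists. Of 23 other secondary and tertiary granule genes tested, 10 rose and 1 fell with shRNA-1, and 19 rose and 2 fell with shRNA-2, with 10 higher with both. Their median log2 changes were 0.61 and 1.06. Over all tested genes, 17.4% rose and 17.3% fell with shRNA-1, 24.4% rose and 24.2% fell with shRNA-2, and 9.24% rose with both. Mmp8, the neutrophil collagenase, rose by 1.76 ± 0.28 and 2.56 ± 0.28, and Fcnb, a ficolin stored in granules, by 2.41 ± 0.16 and 1.36 ± 0.16, with shRNA-1 and shRNA-2 in that order. Slpi, a leukocyte protease inhibitor, fell by 1.18 with shRNA-1 and rose by 0.87 with shRNA-2, the reverse of Ltf. Mmp9, the gelatinase of tertiary granules, rose by 2.36 with shRNA-1 and by 0.79 with shRNA-2, and the latter call was lost without control replicate 2 (0.76) or 3 (0.67) and with total counts (0.59). Itgb2l, an integrin chain, fell by 1.59 with shRNA-2 and stood at −0.02 with shRNA-1, where it was not called.

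Of 31 other mature neutrophil genes, 19 rose and 2 fell with shRNA-1, and 23 rose and 2 fell with shRNA-2, with medians of 0.73 and 1.22. The shares of all tested genes were 17.4% higher and 17.3% lower with shRNA-1, and 24.4% and 24.2% with shRNA-2. Anxa1, encoding annexin A1, rose by 3.42 and 3.19. Fpr1, a formyl peptide receptor, rose by 3.54 with shRNA-1 and stood at 0.58 with shRNA-2, not called, the same order as Camp. Without shRNA-1 replicate 1, the Fpr1 value with shRNA-2 was called (0.57). Csf3r, the receptor for granulocyte colony-stimulating factor, fell by 1.11 ± 0.35 (SE) with shRNA-1 and by 1.16 ± 0.33 (SE) in the shRNA-2 libraries. The first call was lost without shRNA-1 replicate 1 (−0.88) or 2 (−1.18) or control replicate 3 (−0.84), and the second without shRNA-2 replicate 3 (−1.01) or control replicate 3 (−0.87). Mxd1, a MYC antagonist, fell by 0.41 with shRNA-1, a call lost without any 1 shRNA-1 library or control replicate 1 or 3 (−0.45 to −0.29), and rose by 0.93 with shRNA-2. Il1r2, the decoy receptor for interleukin 1, was at 0.08 with shRNA-1, not called, and rose by 3.36 with shRNA-2.

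Primary granules precede the secondary granules in maturation. Of 11 primary granule genes tested, 7 rose and none fell with shRNA-1, while 4 rose and 4 fell with shRNA-2. Over all tested genes, 17.4% rose and 17.3% fell with shRNA-1, and 24.4% rose and 24.2% fell with shRNA-2. Mpo, myeloperoxidase, rose by 4.64 ± 0.29 with shRNA-1 and fell by 1.30 ± 0.27 with shRNA-2, the same directions as Ltf. Elane, neutrophil elastase, rose by 1.37 and 1.20. Ctsg, cathepsin G, was at 0.09 with shRNA-1, not called, and fell by 1.14 with shRNA-2, and Prtn3, proteinase 3, rose by 0.89 with shRNA-1 and was at 0.37, not called, with shRNA-2.

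**Figure D5:**
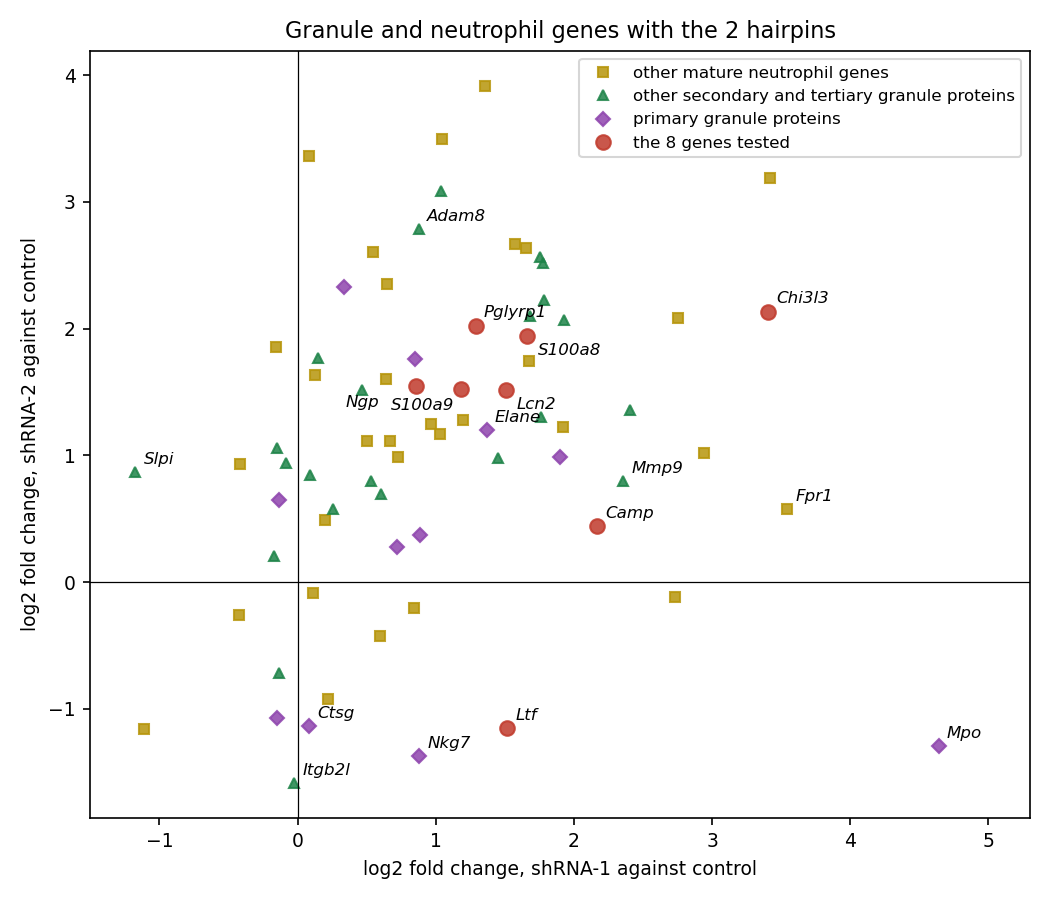
Fitted log2 fold change with shRNA-1 (x axis) against that with shRNA-2 (y axis) for the 8 tested genes (circles), other secondary and tertiary granule genes (triangles), other mature neutrophil genes (squares) and primary granule genes (diamonds), a few named. Ltf (1.52, −1.15) and Mpo (4.64, −1.30) lie at the lower right; both axes share the same 3 controls.

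Of the regulators, Cebpe, the factor known for secondary granule genes, was at 0.08 with shRNA-1 and −0.02 with shRNA-2 and was called with neither. Cebpb rose by 1.53 with shRNA-1 and was at 0.48, not called, with shRNA-2. Cebpa fell by 0.47 with shRNA-1 and was at −0.14, not called, with shRNA-2, and Cebpd rose by 0.50 and 0.44. Gfi1, a repressor needed for neutrophil development, fell by 0.52 and 1.00, and Spi1, which encodes PU.1, was at 0.13 and 0.28 and was called with neither, though without shRNA-2 replicate 3 its shRNA-2 value was 0.46 and called. Among all 27 factors tested, 6 rose and 11 fell with shRNA-1, and 7 rose and 6 fell with shRNA-2. The shRNA-2 counts are near the shares of all genes, 24.4% higher and 24.2% lower, and with shRNA-1 those shares were 17.4% and 17.3%. With shRNA-2 the largest called rises were Rara (2.20), Id2 (2.09) and Klf4 (1.21). The largest called falls were Hoxa9 (−1.44), Gfi1 and Lmo4 (−0.74). With shRNA-1 these stood at 1.00 for Rara, 0.65 for Id2, −0.50 for Klf4 (not called), −0.55 for Hoxa9 and −0.73 for Lmo4. The Klf4 call with shRNA-2 was lost in 3 of 20 alternatives, and the Id2 call with shRNA-1 in 6. The Cebpa call ended without shRNA-1 replicate 2 (−0.39), Cebpb was called with shRNA-2 without shRNA-2 replicate 3 (0.70), and both Cebpd calls were lost with total counts (0.25 and 0.22).

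Among 14 receptors and partners of these proteins, 6 rose and 1 fell with shRNA-1, and 10 rose and 2 fell with shRNA-2. For these and the paralogs below, the shares of all tested genes were 17.4% higher and 17.3% lower with shRNA-1. With shRNA-2 those shares were 24.4% and 24.2%. Tlr4, a receptor for calprotectin, rose by 1.47 and 2.40. Trem1, a receptor that Pglyrp1 can engage, rose by 0.65 and 2.35, and Fpr2, a receptor for cathelicidin peptides, by 2.94 (shRNA-1) and 1.01 (shRNA-2). The Fpr2 call with shRNA-2 was lost in 9 of 20 alternatives, among them leaving out any control or shRNA-2 replicate 2 or 3 (0.78 to 1.05), and the Trem1 call with shRNA-1 was lost with total counts (0.39). Cd69, reported to bind S100A8 and S100A9, fell by 1.24 and 0.80. Of 18 close paralogs tested, 8 rose and 4 fell with shRNA-1 and 13 rose and 2 fell with shRNA-2, with S100a6 higher by 2.04 and 3.27 and S100a10 by 1.32 and 2.75.

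Markers of other cells moved with the knockdown. Of 17 monocyte and macrophage genes tested, 5 were higher in the shRNA-1 libraries and 16 in the shRNA-2 libraries, and none fell. Over all tested genes, 17.4% were higher and 17.3% lower with shRNA-1, and 24.4% and 24.2% with shRNA-2. The summed level of the monocyte and macrophage genes was 196 to 255 CPM in the controls, 216 to 379 CPM with shRNA-1 and 827 to 1390 CPM with shRNA-2. S100a8, S100a9, Lcn2 and Chi3l3 are also made by monocytes or macrophages, and the part of such cells in their rise was not tested. The 4 B cell genes tested gave no call and Cd79a was at 0 in all libraries. Of 14 T and NK cell genes, 6 were at 0 in all libraries, among them Cd3g, Cd8a and Trac, and the summed level was 2.64 to 3.40 CPM in the controls, 2.15 to 2.75 CPM with shRNA-1 and 4.05 to 5.18 CPM with shRNA-2. Alas2 was at 0 in all libraries among erythroid genes, whose summed level was 240 to 260 CPM in the controls, 387 to 459.8 CPM with shRNA-1 and 216 to 242 CPM with shRNA-2. Summed markers of eosinophils, basophils and mast cells were 49.8 to 99.0 CPM in the controls, 17.7 to 46.4 CPM with shRNA-1 and 16.1 to 25.6 CPM with shRNA-2. Of the 6 tested among them, 3 fell and 1 rose with shRNA-1, and 4 fell and 1 rose with shRNA-2. The gene that rose was Ear6 (1.84 and 2.54), whose shRNA-1 call was lost in 4 of 20 alternatives. In the same order of groups, summed markers of platelets were 6.24 to 7.69, 10.98 to 34.1 and 17.0 to 79.3 CPM. Those of stromal and endothelial cells were 25.8 to 41.0, 12.0 to 23.6 and 48.4 to 49.0 CPM.

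The share of ribosomal RNA was above all controls in the shRNA-1 libraries (12.0% to 19.3%, against 4.77% to 8.29%), while the shRNA-2 libraries (6.10% to 15.8%) overlapped the controls. With its log2 value as a covariate, all 8 genes kept their calls and directions with both hairpins, with highest adjusted p-values of 0.0362 with shRNA-1 (Ngp) and 0.0330 with shRNA-2 (Camp) by edgeR's quasi-likelihood test. Under this covariate, Ltf changed by 1.56 and −1.13 and S100a8 by 1.27 and 1.72. Of the other genes described, Mmp8 (1.22 with the covariate), Elane (1.12), Prtn3 (0.68), Cebpd (0.39), Gfi1 (−0.36), S100a10 (0.74), Csf3r (−0.63) and Mxd1 (−0.14) lost their shRNA-1 calls and kept their direction. Ear6 (2.04), Rara (0.89), Id2 (0.28), Hoxa9 (−0.39) and Lmo4 (−0.56) likewise lost theirs and kept their direction. Of the genes named for their correlation, Rfwd2, Calhm2, Tmed5, 9930012K11Rik, Slc10a3 and Phc2 did too. Among the shRNA-2 values, the calls of Csf3r (−0.93) and Fpr2 (0.65) were lost and Cebpb (0.59) was called.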

How the data were processed

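The 9 libraries were made from total RNA by oligo-dT priming of the first cDNA strand and random decamers for the second, per the labels' protocols. For each library the authors deposited a table of raw counts of reads by gene symbol. STAR 2.3.0e, HTSeq 0.6.0 and the build mm10 are named in the submitters' processing notes, while the sources used here do not give the annotation, whether counting used strand, or how multi-mapping reads were handled. Reads of overlapping or antisense genes may therefore be mixed, and close paralogs may share or lose reads.

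The 39179 entries were summed to 38926 symbols (176 symbols stood in several entries), and entries for unassigned reads numbered 0. The filter was filterByExpr with the group given, which left 12663 genes and removed 0.0908% of the counts. Libraries were scaled with TMM, and all 9 entered 1 fit with the group as its only term in edgeR 4.0.16 (R 4.3.3). Each hairpin was compared with the control and with the other by edgeR's quasi-likelihood test, with Benjamini-Hochberg adjustment over all genes tested and a threshold of 0.05. Levels are TMM-scaled CPM computed here from the counts. The steps were also tested on simulated data. Replicate libraries differed by more than sampling noise, and p-values measure the spread between these individually transduced cultures.

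The members, the gene lists and the tests were chosen with earlier results of these data known. All 9 members were named, and of each other list up to 3 genes with the largest rise and 3 with the largest fall per comparison with the control among those called, some of which are not described. Cebpa, Cebpb, Cebpd, Cebpe, Spi1, Gfi1, Mpo, Elane, Prtn3 and Ctsg were named whatever their values. For each tested member the 2 genes with the highest Pearson correlation of log2 CPM over the libraries were named. Alternatives were DESeq2 size factors, total counts, library sizes without the members, no filter, a minimum of 5 CPM in 3 libraries, a replicate block, DESeq2 1.42.0, limma-voom (limma 3.58.1), fits of only 2 groups, the ribosomal RNA share as a covariate, stricter thresholds and leaving out each library. A fit without shRNA-1 replicate 3 and shRNA-2 replicate 2 was added after seeing the data. Positions and transcript lengths came from GENCODE M21 on GRCm38, the assembly of mm10, and promoters from RefSeq (GRCm38.p6).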

Additional observations from a re-analysis of the deposited data

Results flagged for a closer look

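The hairpins differed from each other for 5 of the 8 genes by edgeR's quasi-likelihood test of the difference itself, where 19.7% of all tested genes were higher with shRNA-1 and 21.3% lower. The log2 level with shRNA-1 minus that with shRNA-2 was 2.667 for Ltf, 1.729 for Camp and 1.268 for Chi3l3, and −0.6913 for Ngp and −0.7354 for Pglyrp1. For Ltf the 3 shRNA-1 libraries lay above the controls and the 3 shRNA-2 libraries below them. For Chi3l3, Ngp and Pglyrp1 all 6 knockdown libraries lay above the controls. Syncrip was lower with shRNA-1 than with shRNA-2 (17.8 and 56.7 CPM), and 15 of 17 monocyte and macrophage genes were lower with shRNA-1 than with shRNA-2. The part of these in the 5 differences was not tested.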

How the results depend on the processing

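Across 24 comparisons of single members, each under 20 alternatives, 469 of 480 values kept the direction or the side of the threshold they had, 11 lost the call and 0 of the called values reversed. Of the 11, 10 were Camp with shRNA-2 (0.22 to 0.50 on the log2 scale), and the other was Pglyrp1 between the hairpins. The number of members lower with shRNA-1 than with shRNA-2, 2 at the threshold used, was 0 when a change of at least 2-fold was also asked for, as this rule implies for changes under that size, and 1 (Ngp) without shRNA-1 replicate 3 and shRNA-2 replicate 2. The other counts of members stayed within 1.5 times under all alternatives. The count of members higher with both hairpins was 6 instead of 7 wherever the Camp call with shRNA-2 was lost. It was also 6 at an adjusted p under 0.01, and 5 when a change of at least 2-fold was also asked for.

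Of 9 pairs of same-numbered libraries, 7 had deviations from their group means that correlated above 0.1, and both pairs of shRNA-1 replicate 2 were below 0 (the range was −0.14 to 0.38). Since not every pair exceeded 0.1 and the labels name no shared origin, the numbers were not taken to pair the samples. With a replicate block, the counts of members were 8 higher with shRNA-1, 7 higher and 1 lower with shRNA-2, and 3 higher and 2 lower with shRNA-1 than with shRNA-2, and the calls over all genes numbered 2552 higher and 2411 lower with shRNA-1. Prtn3 with shRNA-2 was called with the block (0.37, adjusted p = 0.0465). Total counts without TMM moved the median log2 change of all genes to −0.23 (shRNA-1) and −0.21 (shRNA-2), and the share of calls that were higher to 23.8% and 33.6% from 50.1% and 50.2%. Under the ribosomal RNA covariate 827 genes were called higher and 531 lower with shRNA-1, against 2201 and 2188. The cause was not tested. Counts were lowest for Ly6g, which had at most 5 in a library, and next lowest for Ltf, which had 67 to 457 counts per library.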
